A study of Mus musculus with 7 samples.

Results

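C1q-like proteins, cerebellins and C1q/TNF-related protein 4 are secreted proteins that carry a globular C1q domain, and their genes were followed here in the brains of aged mice. The 9 genes are C1ql1, C1ql2, C1ql3, C1ql4, Cbln1, Cbln2, Cbln3, Cbln4 and C1qtnf4, found by their mouse symbols among the 48526 Ensembl genes of the deposited table. The set was chosen by measured values of these same libraries, the low levels of C1ql2 and C1qtnf4 in on, so the on and off values of the 9 genes are a description and carry no test. Brain RNA was sequenced in 4 libraries labelled on, which carry the label glucose, and 3 labelled off, which carry the label Dox, a common short form of doxycycline. All 7 libraries are from mice of 24 months with the V1S and SV2 constructs, named in the labels together with the fluorescent protein Venus and the letters DT. The sources used here do not name the promoter of the constructs, the brain region or the number of animals behind a library. The label Dox goes with off in every library, so an effect of Dox and one of the constructs cannot be told apart.

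As background, C1q-domain proteins of synapses assemble into trimers and larger complexes that cross the synaptic cleft and hold the presynaptic and postsynaptic membranes in register. In the mouse, C1q-like proteins bind the adhesion receptor Adgrb3, also called BAI3, and those released from the mossy fibres of the dentate gyrus also bind neurexin and kainate receptors. Cerebellin from granule cells of the cerebellum binds neurexin on the parallel fibre and bridges the cleft to the Purkinje cell. C1qtnf4 encodes a protein with a pair of C1q domains and is known for its part in food intake in mice.

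All 9 genes are protein-coding. In the GENCODE M21 annotation of GRCm38 the C1q-like genes lie at chr11:102939264-102946688 for C1ql1, chr1:120340582-120343174 for C1ql2, chr2:13003457-13011806 for C1ql3 and chr15:99084086-99087817 for C1ql4. C1qtnf4 lies at chr2:90885860-90890525. The coding sequences of C1ql1, C1ql2 and C1ql3 were 75.8% to 76.3% identical in each pairwise alignment. C1ql4 was 72.6% to 76.1% identical to those 3, and the identities between the C1q-like genes and the cerebellins or C1qtnf4 ran from 58.2% to 64.8%.

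The stretch around the longest shared run of C1ql2 and C1ql3 is shown because reads from it could be assigned to another C1q-like gene. C1ql2 and C1ql3 share a run of 38 identical bases there, the longest shared run of any 2 of the 9 coding sequences. Each line gives 60 bases of coding exon, 5′ to 3′ on the gene's own strand, and capitals mark bases that differ from C1ql2.
C1ql2 (chr1:120341611-120341670, plus strand): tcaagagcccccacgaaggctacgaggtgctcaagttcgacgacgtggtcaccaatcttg
C1ql3 (chr2:13010391-13010450, minus strand): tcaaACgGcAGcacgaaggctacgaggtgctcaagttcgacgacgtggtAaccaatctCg
C1ql1 (chr11:102945996-102946055, minus strand): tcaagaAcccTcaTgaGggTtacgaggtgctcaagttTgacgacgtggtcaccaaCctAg
C1ql4 (chr15:99087323-99087382, minus strand): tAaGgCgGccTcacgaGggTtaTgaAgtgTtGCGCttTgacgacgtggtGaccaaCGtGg
Against C1ql2, 7 of the 60 bases differ in C1ql3, 8 in C1ql1 and 19 in C1ql4. Neither the read length nor the handling of reads with several matches is stated in the labels.

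C1qtnf4 has the highest GC content of the 9 genes, 70.7% over its transcript, above that of nearly all tested genes (percentile 99.9). The 60 bases of its coding exon with the highest GC content are shown because GC content is one of the properties used in the correction described next, with G and C in capitals.
C1qtnf4 (chr2:90889852-90889911, plus strand): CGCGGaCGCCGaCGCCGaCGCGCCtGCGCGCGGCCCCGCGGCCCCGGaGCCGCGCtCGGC
In this stretch 90% of the bases are G or C. C1ql1 (65.8%), C1ql2 (63.4%), C1ql4 (61.0%), Cbln1 (56.25%) and C1ql3 (53.1%) were also above the median of 49.5% over all tested genes. Cbln2 (48.5%), Cbln3 (48.9%) and Cbln4 (49.0%) lay just below it.

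Values are rlog, the regularized logarithm that DESeq2 makes from counts (log2). They do not show how deeply each library was sequenced, so the depth is unknown. The filter for testing, a mean of at least 3 over the libraries, kept 17896 genes, among them all 9 of the set. The first principal component placed on replicate 1 (-4.10) among the off libraries (-8.64 to -3.56) and away from on replicates 2 to 4 (7.19 to 9.15). Deviations of genes from their means followed transcript length, with Spearman's rho across genes (not independent replicates) of -0.0592 in on replicate 1, from 0.274 to 0.291 in on replicates 2 to 4, and from -0.316 to -0.233 in off. With GC content rho was 0.180, -0.456, -0.139 and -0.297 in on and -0.113, 0.233 and 0.578 in off. Some values below are therefore also given without on replicate 1. Some are given after removal of each library's smooth trend with GC content and transcript length, called the GC and length correction. Since length trends ran along the groups, a trend from library making and a biological change in short genes cannot be told apart.

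C1ql2, an organizer of mossy fibre synapses, had values of 7.69, 7.55, 7.50 and 7.52 in on brains, against 7.85, 7.94 and 7.97 in off brains. Every on library lay below every off library, with on replicate 1 nearest to the off values. The group means were 7.56 ± 0.09 (SD, n = 4) in on and 7.92 ± 0.06 (SD, n = 3) in off. The difference, on minus off, was -0.36 ± 0.06 (SE), so the on level was 78.0% of the off level on this shrunken scale. It was -0.40 without on replicate 1. After the GC and length correction the values were 7.71, 7.64, 7.56 and 7.59 in on and 7.84, 7.83 and 7.84 in off, still without overlap, and the difference was -0.21 ± 0.05 (SE). In bulk tissue, fewer cells of a type and less RNA per cell cannot be told apart.

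C1ql3, the close relative of C1ql2 that is also made by cortical neurons, had values of 10.87, 10.88, 10.79 and 10.90 in on brains, against 10.99, 11.10 and 11.02 in off brains. The groups did not overlap. The means were 10.86 ± 0.05 (SD, n = 4) in on and 11.04 ± 0.06 (SD, n = 3) in off, with a difference of -0.18 ± 0.04 (SE), and the difference was also -0.18 without on replicate 1. Its GC content of 53.1% is the lowest of the C1q-like genes, and the corrected difference was -0.12 ± 0.04 (SE). Taken within each library, C1ql2 minus C1ql3 was -3.30 ± 0.08 (SD, n = 4) in on and -3.12 ± 0.06 (SD, n = 3) in off, without overlap, a difference of -0.18 that follows the choice of C1ql2 as low in on. After the correction this measure was -3.26 ± 0.09 (SD, n = 4) in on and -3.17 ± 0.04 (SD, n = 3) in off, the groups overlapped and the difference was -0.09.

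C1ql1, which climbing fibres release onto Purkinje cells, had values of 8.33, 8.06, 8.14 and 8.04 in on brains, against 8.37, 8.33 and 8.38 in off brains. The groups lay apart by only 0.008, because on replicate 1 nearly reached the off level. The means were 8.14 ± 0.13 (SD, n = 4) in on and 8.36 ± 0.03 (SD, n = 3) in off. The difference was -0.22 ± 0.07 (SE), and -0.28 without on replicate 1. After the GC and length correction it was -0.02 ± 0.06 (SE), with overlapping groups.

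C1ql4, the least abundant of the set, had values of 4.49, 4.39, 4.53 and 4.43 in on brains, against 4.47, 4.53 and 4.58 in off brains. The groups overlapped, and the difference was -0.07 ± 0.04 (SE) and -0.02 ± 0.04 (SE) after the correction. Shrinkage is strong at this level, so a difference here understates the change in counts.

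C1qtnf4 had values of 10.99, 11.02, 10.86 and 10.94 in on brains, against 11.36, 11.48 and 11.36 in off brains. The gap between the groups, 0.34, was the widest of the 9 genes and more than the whole range within either group (0.15 in on and 0.12 in off). The means were 10.95 ± 0.07 (SD, n = 4) in on and 11.40 ± 0.07 (SD, n = 3) in off, a difference of -0.44 ± 0.05 (SE) and an on level of 73.5% of the off level. The difference was -0.46 without on replicate 1. The correction changed it more than that of any other gene of the set: corrected values were 11.09, 11.15, 11.03 and 11.12 in on and 11.17, 11.24 and 11.16 in off, with a difference of -0.09 ± 0.04 (SE). The corrected groups still did not overlap, but on replicate 2 came within 0.007 of off replicate 3.

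**Figure D1:**
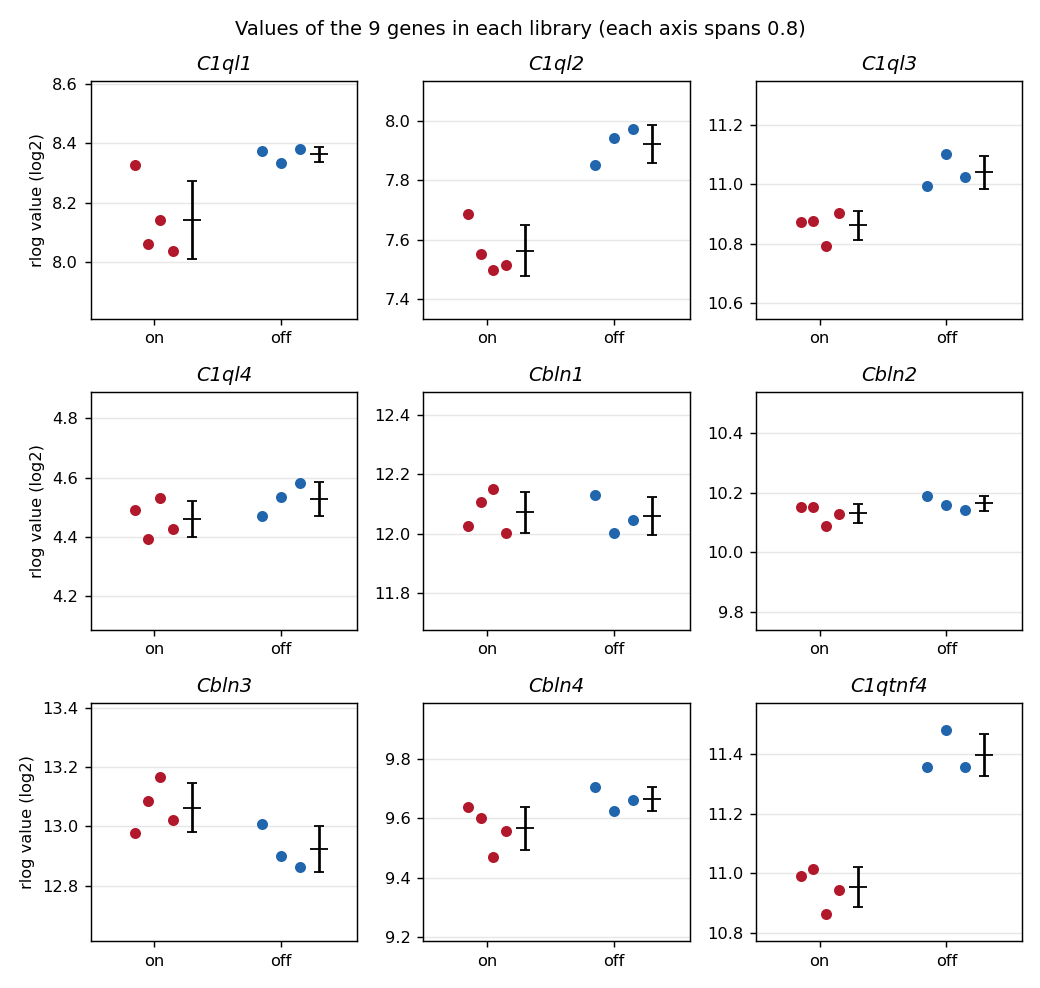
The rlog value (log2) of each of the 9 genes in every library, with 4 on libraries left and 3 off libraries right; black marks are the mean and SD, and each vertical axis spans the same width. C1ql1, C1ql2, C1ql3 and C1qtnf4 have every on point below every off point, C1ql1 by 0.008 only, and the other 5 genes overlap.

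All 4 cerebellins overlapped between the groups. Cbln1, which links parallel fibres to Purkinje cells, had values of 12.024, 12.108, 12.151 and 12.002 in on brains, against 12.129, 12.001 and 12.045 in off brains. The groups covered nearly the same range, with a difference of 0.01 ± 0.05 (SE) that had the opposite sign when on replicate 3 (-0.01) or off replicate 2 (-0.02) was left out. The corrected difference was 0.08 ± 0.05 (SE). Cbln1 lies at chr8:87468405-87472609 inside Gm2694, an annotated noncoding gene of the opposite strand. Cbln1 had a mean value of 12.07 and Gm2694 one of 9.04, and without a stated strand setting their reads cannot be told apart. Noncoding genes of the opposite strand also overlap C1ql1 (Gm26668, mean -0.67) and C1ql3 (Gm37811, mean 5.25, and Gm37824, mean 1.70).

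Cbln3 (chr14:55878913-55884392), which in the mouse leaves granule cells only in complex with Cbln1, had values of 12.98, 13.09, 13.17 and 13.02 in on brains, against 13.01, 12.90 and 12.86 in off brains. Of the on libraries only replicate 1 lay below the highest off library. The means were 13.06 ± 0.08 (SD, n = 4) in on and 12.92 ± 0.08 (SD, n = 3) in off, with a difference of 0.14 ± 0.05 (SE), of 0.17 without on replicate 1 and of 0.12 ± 0.04 (SE) after the correction. Taken within each library, Cbln3 minus Cbln1 was 0.95, 0.98, 1.02 and 1.02 in on brains and 0.88, 0.90 and 0.82 in off brains. The groups did not overlap in this measure, with a difference of 0.13. After the correction it was 0.98, 0.90, 0.97 and 0.97 in on brains and 0.89, 0.97 and 0.89 in off brains, so that the groups overlapped and the difference was 0.04. Both genes had their highest on value in replicate 3 and their highest off value in replicate 1.

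Cbln2 and Cbln4, made by neurons outside as well as inside the cerebellum and able to bind neurexins, were close in both groups. They lie at chr18:86711110-86718283 (Cbln2) and chr2:172036233-172043466 (Cbln4). Cbln2 had values of 10.15, 10.15, 10.09 and 10.13 in on brains, against 10.19, 10.16 and 10.14 in off brains, with a difference of -0.03 ± 0.04 (SE). Cbln4 had values of 9.64, 9.60, 9.47 and 9.56 in on brains, against 9.71, 9.63 and 9.66 in off brains, with a difference of -0.10 ± 0.05 (SE). Both overlapped between the groups, both were lowest in on replicate 3 and highest in off replicate 1, and the correction left their differences at -0.03 ± 0.03 and -0.10 ± 0.05 (SE).

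**Figure D2:**
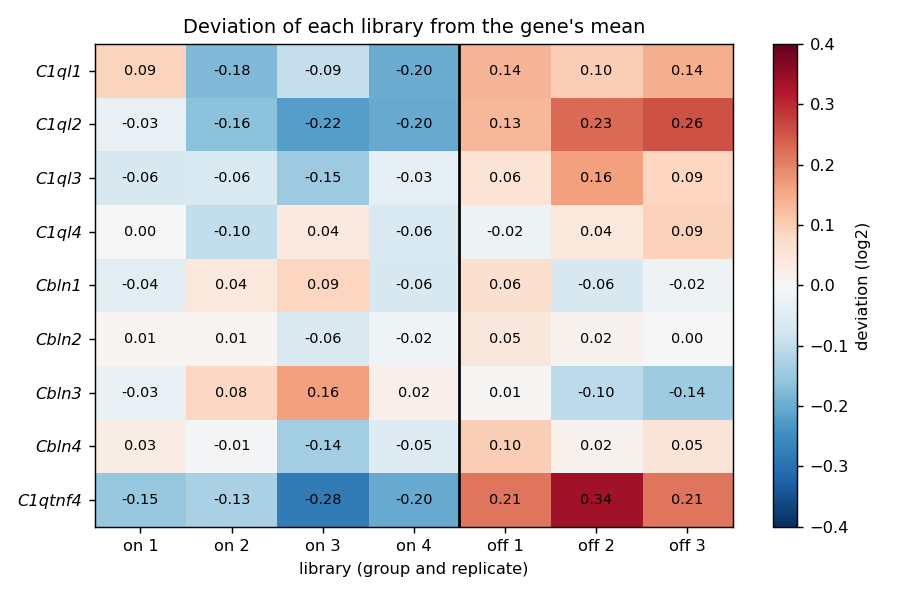
Deviation of each library (columns, on left and off right) from the gene's mean over the 7 libraries (log2), for the 9 genes (rows); blue is below and red above the mean. C1ql2, C1ql3 and C1qtnf4 are below their mean in all 4 on libraries and above it in all 3 off libraries, and Cbln3 runs the other way except in on replicate 1 and off replicate 1.

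Of the 9 genes, 7 had a negative difference, and the median was -0.10 over the set against 0.00 over all tested genes, of which 48.5% were negative. After the correction 7 were again negative and the median was -0.03, against 0.00 over all tested genes. Of the 9, 4 had on and off values without overlap, all lower in on; 8.09% of tested genes were lower and 7.13% higher without overlap, 15.2% in either direction. In limma, 3 of the 9 (C1ql2, C1ql3 and C1qtnf4) passed the threshold of 0.05 on the adjusted p as lower and 0 as higher, where 1.79% and 0.816% of all tested genes did, 2.6% in either direction. These counts come from the contrast on which the set was chosen and support nothing. After the correction 3 of the 9 (again C1ql2, C1ql3 and C1qtnf4) did not overlap and were lower, where 7.97% of the genes with a corrected value were lower and 5.87% higher without overlap. In limma 0 passed after the correction, where 0.426% passed as lower and 0.163% as higher, 0.589% in either direction.

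**Figure D3:**
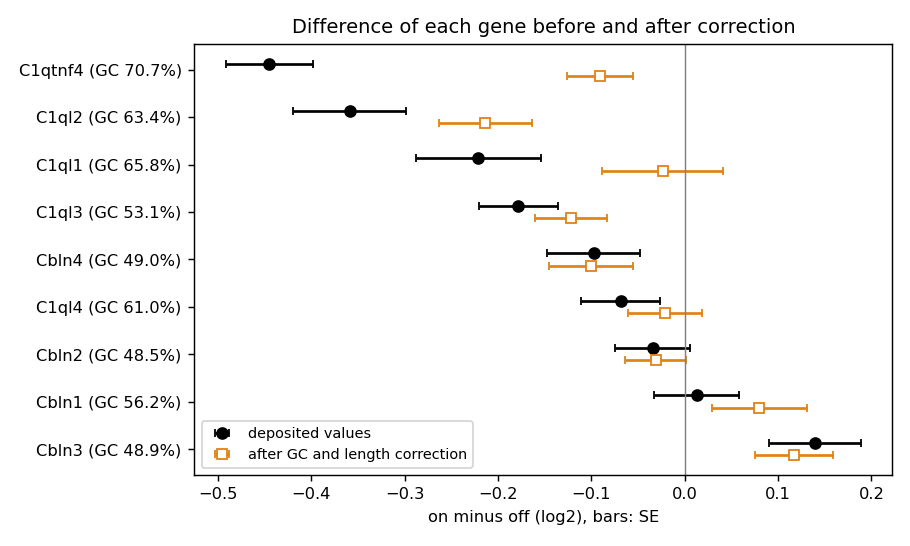
On minus off difference (log2) of each gene with its SE, from the deposited values (filled circles) and after the GC and length correction (open squares), with the GC content of the longest transcript beside the name. The difference of C1qtnf4 is -0.44 before and -0.09 after the correction and that of C1ql2 -0.36 and -0.21, while those of Cbln2 and Cbln4 differ by less than 0.01.

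The genes differ widely in level. Per kilobase of the longest annotated transcript (rlog value minus log2 of the length in kilobases), the mean level over the 7 libraries was 10.78 for C1qtnf4, 10.72 for Cbln3 and 10.58 for Cbln1. C1qtnf4 has no fixed place among these first 3. C1qtnf4 ran from 10.50 to 10.65 in on and from 10.99 to 11.11 in off, on both sides of Cbln3 (10.70 to 10.88 in on and 10.58 to 10.73 in off). Cbln1 ran from 10.52 to 10.67 in on and from 10.52 to 10.64 in off, and lay below Cbln3 in every library. C1ql3 (9.60), Cbln2 (8.80), Cbln4 (8.07), C1ql1 (7.68), C1ql2 (6.72) and C1ql4 (3.93) followed, and the ranges over the 7 libraries did not overlap between neighbours in this order. The closest neighbours were Cbln4 (7.93 to 8.10 in on and 8.09 to 8.17 in off) and C1ql1 (7.48 to 7.77 in on and 7.77 to 7.82 in off). The order of the first 3 depends on the transcripts used. The longest annotated transcripts are 4866 bases for Cbln3 and 2800 bases for Cbln1, and those that gave the coding sequences are 1438 and 1699 bases. With the lengths of the coding-sequence transcripts the level was 12.48 for Cbln3, 11.30 for Cbln1 and 10.78 for C1qtnf4, in this order in every library.

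Pearson's r over the 7 libraries is given as a measure of likeness only, because the libraries share the group difference and the trend with length. C1ql2 and C1qtnf4 were chosen as low in on, which by itself gives genes with the same group difference a high r. Among genes with a symbol that is not a model number, C1ql2 was most like Camk2n2, an inhibitor of calcium/calmodulin-dependent kinase (r = 0.995), then Lrrc14 (0.993), Ndufaf8 (0.993) and the kinase gene Map2k2 (0.992). C1qtnf4 was most like Cnih2, an auxiliary subunit of AMPA receptors (r = 0.995), then Vta1 (0.994), Tmem158 (0.993) and Ccdc85b (0.992). Within the set, the r of C1ql2 with C1qtnf4 was 0.950 over the 7 libraries and 0.493 once the group means were taken out, below the 0.705 of C1ql2 with C1ql1 on that measure. For C1qtnf4 with C1ql3 the 2 values were 0.962 and 0.844, for Cbln2 with Cbln4 0.931 and 0.902, and for Cbln1 with Cbln3 0.695 and 0.890.

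Their receptors and partners were measured from a list of 11 genes, of which all 11 were tested. The list also holds Grid2ip, a gene for a scaffold protein rather than a receptor of the secreted proteins. It was drawn up with earlier results of these data known, so its count of calls is a description. In limma 2 passed as higher in on, 0 passed as lower and 9 did not pass, where 0.816% of all tested genes passed as higher. Of those 2, Grid2ip is described here. Grid2ip, which encodes delphilin, a scaffold protein of the parallel fibre synapse on Purkinje cells, had values of 9.33, 9.47, 9.40 and 9.40 in on brains, against 9.12, 9.13 and 9.24 in off brains. The groups did not overlap, and the difference was 0.24 ± 0.05 (SE, limma adjusted p = 0.0306). With 1 library left out, Grid2ip passed only without on replicate 1, and its highest limma adjusted p was 0.163, without off replicate 2. With the replicate number as a block its limma adjusted p was 0.199. After the GC and length correction it passed at 0.29 ± 0.05 (SE, limma adjusted p = 0.0205).

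The other genes of the list named here did not pass. Adgrb3, the receptor of C1q-like proteins, differed by 0.01 ± 0.04 (SE, limma adjusted p = 0.963) from means of 12.05 ± 0.07 (SD, n = 4) in on and 12.04 ± 0.05 (SD, n = 3) in off. Of the neurexin genes, Nrxn2 differed by -0.11 ± 0.05 and Nrxn3 by 0.06 ± 0.04 (SE, limma adjusted p of 0.203 and 0.353), and Nrxn3 was at -0.01 after the correction. Nrxn2 passed without on replicate 1 (-0.14, limma adjusted p = 0.0495). Of the kainate receptor genes, Grik2 differed by 0.12 ± 0.04 and Grik4 by -0.11 ± 0.06 (SE, limma adjusted p of 0.155 and 0.320), and Grik2 passed without on replicate 1 (0.15, limma adjusted p = 0.0136) and was at 0.00 after the correction. Grid1, a delta glutamate receptor of the forebrain, differed by -0.12 ± 0.05 (SE, limma adjusted p = 0.223). The receptors Neo1 and Dcc, which can bind Cbln4, differed by 0.08 ± 0.04 and -0.02 ± 0.07 (SE, limma adjusted p of 0.199 and 0.924). Neo1 did not overlap between the groups and lay higher in on, as 7.13% of all tested genes did. After the correction Grid1 and Grik4 were both at -0.15, Dcc at -0.13, Nrxn2 at -0.07, Adgrb3 at -0.04 and Neo1 at 0.02. None of these passed there.

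**Figure D4:**
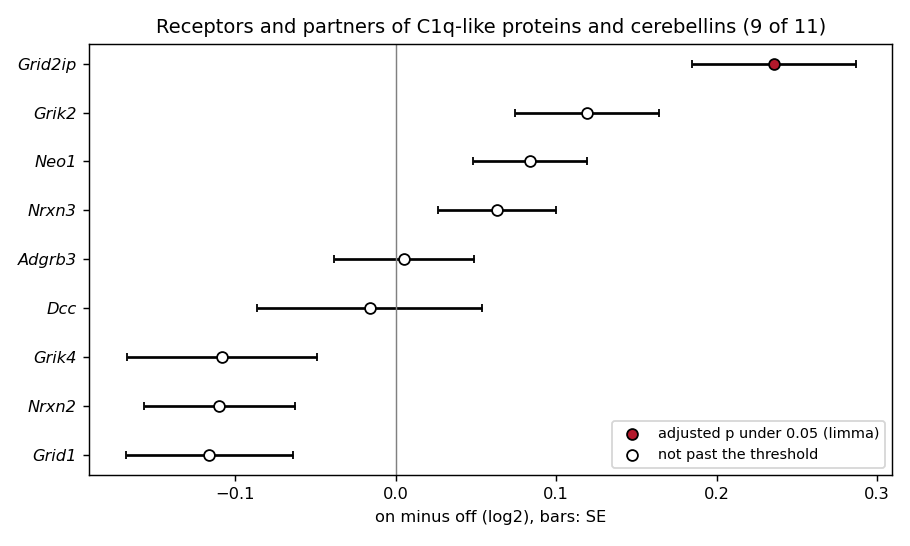
On minus off difference (log2) with its SE for 9 of the 11 genes listed as receptors and partners of C1q-like proteins and cerebellins, with the scaffold gene Grid2ip among them. Filled points passed the limma threshold. Grid2ip (0.24) is the only filled point among the 9, and Grid1, Nrxn2, Grik4 and Dcc lie below 0.

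Other organizers of synapses, 45 genes from neuroligins to neuronal pentraxins, had a median difference of 0.00. In limma 1 passed as higher, 1 as lower and 43 did not pass, where 0.816% of all tested genes passed as higher and 1.79% as lower. Ntrk3, the neurotrophin receptor TrkC, had values of 13.08, 13.34, 13.24 and 13.18 in on brains, against 13.003, 12.91 and 12.95 in off brains, with a difference of 0.26 ± 0.05 (SE, limma adjusted p = 0.025). Nptx2, a secreted pentraxin that clusters AMPA receptors and follows neuronal activity, had values of 9.97, 9.99, 10.06 and 9.94 in on brains, against 10.11, 10.32 and 10.25 in off brains, with a difference of -0.24 ± 0.05 (SE, limma adjusted p = 0.0322). Neither overlapped between groups. Ntrk3 passed in 3 of the 7 fits without 1 library (those leaving out off replicate 1 or either of on replicates 1 and 2, the last at an adjusted p of 0.049997) and Nptx2 in 2 (without on replicate 1 or off replicate 1). Neither passed with the replicate number as a block (limma adjusted p of 0.172 for Ntrk3 and 0.199 for Nptx2). After the correction they differed by 0.07 ± 0.03 and -0.18 ± 0.05 (SE), and neither passed (limma adjusted p of 0.315 and 0.0954). Next by p were Lrrc4b at -0.17 ± 0.05 and Cadm4 at -0.17 ± 0.05 (SE, limma adjusted p of 0.0683 and 0.0859), adhesion proteins. Both overlapped between the groups. Both passed without on replicate 1, Lrrc4b also without off replicate 1. After the correction Lrrc4b differed by -0.03 ± 0.03 and Cadm4 by -0.05 ± 0.03 (SE, limma adjusted p of 0.609 and 0.382).

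Among other genes of the C1q-domain superfamily no call was made. The list of 25 symbols had rows for 23, 19 were tested, 0 passed in limma, and 3 (Caprin2, C1qtnf12 and C1qb) had an unadjusted p under 0.05. With on replicate 1 left out 3 passed, 1 higher and 2 lower. Caprin2 differed by 0.20 ± 0.07, C1qtnf12 by -0.15 ± 0.06, C1qb by -0.15 ± 0.07 and Emilin2 by 0.12 ± 0.06 (SE, limma adjusted p of 0.130, 0.168, 0.230 and 0.311). The median over the 19 was 0.01. C1qtnf5 was listed at 0 in every library, and the fat-cell hormone gene Adipoq, Mmrn1 and Otol1 had means under the filter.

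Markers of the cells that make these proteins were set beside them. Of 13 markers of cerebellar granule cells, the source of Cbln1 and Cbln3, 11 had a positive difference, the median was 0.07, and 0 passed in limma. Their mean deviation was -0.098, 0.130, 0.098 and 0.029 in on replicates 1 to 4 and -0.026, -0.050 and -0.084 in off replicates 1 to 3. The log2 of their summed level ran from 15.86 to 15.99 in on and from 15.88 to 15.98 in off, and 0 of them were listed at 0. In the mean deviation on replicates 2, 3 and 4 were thus higher than every off library, as they were in Cbln3, and on replicate 1 was lower than all of them. The summed levels overlapped between the groups. Of the 13 markers 0 were without overlap between the groups, where 15.2% of all tested genes were. Fat2 had the smallest p, with a difference of 0.36 ± 0.09 (SE, limma adjusted p = 0.0515), and Svep1 the next at 0.24 ± 0.09 (SE, limma adjusted p = 0.142). With 1 library left out, both passed only without on replicate 1. After the correction Fat2 differed by 0.24 ± 0.09 and Svep1 by 0.15 ± 0.09 (SE, limma adjusted p of 0.199 and 0.401). Of 10 Purkinje cell markers, the cells that express Grid2ip, 7 had a positive difference, the median was 0.06 and 0 passed; Pcp4 differed by -0.22 ± 0.06 and Car8 by 0.17 ± 0.06 (SE, limma adjusted p of 0.0622 and 0.164). The log2 of their summed level ran from 16.23 to 16.33 in on and from 16.06 to 16.25 in off, with 0 listed at 0. The part of these cells in the values of Cbln3 and Grid2ip was not tested.

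Of 12 markers of dentate granule cells, the main source of C1ql2 in mouse hippocampus, 6 were negative and 6 positive, with a median of 0.01. Their summed level on the log2 scale ran from 14.11 to 14.20 in on and from 14.14 to 14.21 in off, and 0 were listed at 0. In limma 1 passed, as lower, where 1.79% of all tested genes did. That gene, Marcksl1, differed by -0.23 ± 0.05 (SE, limma adjusted p = 0.024), and by -0.11 after the correction. With 1 library left out it passed only without on replicate 1. Dsp, which marks dentate granule cells in the mouse, differed by -0.18 ± 0.05 (SE, limma adjusted p = 0.0769). Prox1, their defining transcription factor, named after its values were seen, differed by 0.12 ± 0.04 (SE, limma adjusted p = 0.139). After the correction Dsp differed by -0.23 ± 0.05 and Prox1 by 0.04 ± 0.04 (SE, limma adjusted p of 0.0724 and 0.592). Oligodendrocyte precursors also express C1ql1 in the mouse. Of their 8 markers 2 passed as lower and 6 did not, where 1.79% of all tested genes passed as lower. Those 2 were the lineage factors Olig1 at -0.28 ± 0.05 and Olig2 at -0.24 ± 0.06 (SE, limma adjusted p of 0.0165 and 0.0493). The median was -0.01, and 5 of the 8 were negative. The positive ones were Vcan (0.09 ± 0.04), Pdgfra (0.02 ± 0.04) and Cspg4 (0.01 ± 0.06, differences ± SE). Vcan did not overlap between the groups and was at -0.03 after the correction. Olig1 passed in 3 and Olig2 in 2 of the 7 fits without 1 library, and neither passed with the block. After the correction Olig1 differed by -0.15 and Olig2 by -0.18, and neither passed (limma adjusted p of 0.0832 and 0.155). The summed level of these 8 markers on the log2 scale ran from 13.62 to 13.76 in on and from 13.76 to 13.79 in off, with 0 listed at 0. The part of these cells in the value of C1ql1 was not tested.

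The remaining marker lists, 8 genes each, were all detected and gave a median of -0.01 for astrocytes, -0.09 for microglia, -0.06 for oligodendrocytes, -0.05 for neurons and -0.05 for choroid plexus and blood, with 0 past the limma threshold in each. Among the markers of smallest p were Slc1a2 (0.10 ± 0.05) and Slc1a3 (0.05 ± 0.04) for astrocytes, Tmem119 (-0.15 ± 0.07) for microglia, and Cldn11 (-0.11 ± 0.05) and Mog (-0.09 ± 0.05) for oligodendrocytes (differences ± SE). For neurons they were Tubb3 (-0.14 ± 0.05) and Rbfox3 (-0.08 ± 0.04), and for choroid plexus and blood Hba-a2 (-0.14 ± 0.09) and Hbb-bs (-0.24 ± 0.18). The endothelial list had a median of 0.12 with 1 call as higher, Vwf, where 0.816% of all tested genes passed as higher. Vwf differed by 0.35 ± 0.09 (SE, limma adjusted p = 0.0454) and passed with 1 library left out only without on replicate 1 or off replicate 1. Vwf overlapped between the groups and did not pass after the correction (0.30, limma adjusted p = 0.132). Kdr was next at 0.22 ± 0.10 (SE, limma adjusted p = 0.210).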

How the data were processed

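Per the labels' protocols, RNA came from Qiagen miRNeasy columns with DNase digestion, and TruSeq Stranded mRNA libraries (Illumina) were sequenced. DESeq2 1.16.1, Subread 1.5.3 and STAR 2.5.2 stand in the submitters' processing notes without roles, as do BWA 0.7.14-r1136, cutadapt 1.9.1 and build GRCm38. The authors deposited 1 table of rlog values on the log2 scale for 48526 genes, 13834 of them at 0 in every library. No 2 libraries held identical values. Symbols were found for 48058 identifiers. GENCODE M21 supplied positions, and length and GC content of the longest transcript for 17831 of 17896 tested genes.

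Differences, on minus off, were fitted across all tested genes with limma 3.58.1 in R 4.3.3 (group term, intensity trend, two-sided, Benjamini-Hochberg, threshold 0.05). The labels do not say that libraries are separate animals, so the p-values speak of the spread among samples, which may be technical. The GC and length correction used smooth terms (mgcv 1.9.3) within each of 3 expression classes. Coding sequences were aligned globally with Biopython 1.88. On simulated data for 17896 genes, 42% of differences of 0.2 and 92% of 0.4 were recovered, with 9 false calls among 174. That simulation held no trend shared by a library's genes, so its rates do not carry over to the measured libraries. In a run with a simulated trend limma made 9493 calls, and the GC and length correction brought this to 0.

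The members and lists were chosen with earlier results of these data known. The rule named all members, fixed receptors, called list genes and those of smallest p (4 per gene list, 2 per marker list), and the genes most like C1ql2 and C1qtnf4; some genes it selects are not reported here. Alternatives were filters, scalings, variance models, the replicate block, the correction and each library left out.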

Additional observations from a re-analysis of the deposited data

Results flagged for a closer look

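Among 59 values, 3 had 1 on library far from the other on libraries, where chance gives about 2.95, since the test flags about 1 in 20 such groups. In each of the 3 it was on replicate 1. The mean deviation of the 4 C1q-like genes was -0.000887 in on replicate 1, against -0.125 to -0.105 in the other on libraries. The endothelial receptor gene Kdr was at 8.72 in on replicate 1, against 9.14 to 9.21 in the others. The mean deviation of the endothelial markers was -0.194 in on replicate 1, against 0.109 to 0.170 in the others.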

How the results depend on the processing

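The count of genes called in limma, 466, was 7 with no filter on low values, 237 without the intensity trend, 2215 with array weights, 30 with the replicate number as a block, 105 after the GC and length correction, 2 after it with the block, and between 43 and 2917 with 1 library left out. Of receptors and partners 2 were called; the count was 0 with no filter, 1 without the trend, 0 with the block, 1 after the correction, 0 after it with the block, and between 0 and 4 with 1 library left out. Of other organizers 2 were called; the count was 0 with no filter, without the trend, with the block, and after the correction with or without the block, 8 with array weights, and between 0 and 8 with 1 library left out. Of other C1q-domain genes 0 were called; the count was 1 with array weights and between 0 and 3 with 1 library left out. The median over the 9 genes, -0.10, was -0.138 with a mean of 5 or more (8 genes, without C1ql4), -0.031 after the correction, -0.030 after it with the block, and between -0.122 and -0.092 with 1 library left out. The cause of these shifts was not tested, apart from the smaller sets of genes or samples where named.

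Same-numbered on and off libraries had correlations of -0.228, -0.100 and 0.018 between their deviations from the group means, which gave no sign of pairing. Those deviations also hold the library trends with length and GC content, so they cannot show whether equal numbers share a batch. The labels state no pairing. On replicate 4 has no partner and does not bear on the blocked fit. With the block C1ql2 differed by -0.34, C1ql3 by -0.19 and C1qtnf4 by -0.44. The differences of C1ql2, C1ql3, C1ql4, Cbln2, Cbln3, Cbln4 and C1qtnf4 kept their sign under every alternative run. For C1ql2, C1ql3 and C1qtnf4, whose groups did not overlap, leaving out 1 library could not change the sign. C1ql2 and C1qtnf4 were also chosen as low in on, so their kept sign supports nothing. The difference of C1ql1 was 0.006 after the correction with the block. Other named genes turned sign in some alternatives, without passing the threshold there. Adgrb3 (0.01 in the main fit) was at -0.000681 with quantile normalization, -0.020 with the block, -0.044 after the correction and -0.066 after it with the block. With 1 library left out Adgrb3 was between -0.0202 and 0.0351. After the correction without and with the block, Nrxn3 (0.06 in the main fit) was at -0.011 and -0.020, and Slc1a2 (0.10) at -0.019 and -0.00284. After the correction with the block, Grik2 (0.12 in the main fit) was at -0.017 and C1qb (-0.15) at 0.017. Depth is unknown, so no counting interval is given.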
